A study of Arabidopsis thaliana with 30 samples.

Results

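The genes described here encode the enzymes of chlorophyll synthesis and a protein that activates one of them: HEMA1, GUN4, CHLH, CHLI1, CHLD, CHLM, CRD1, PORA, PORB and PORC. They were taken as a list of named genes of the pathway and are 10 of the 27417 genes in the count table. All 10 had enough reads to be among the 19249 genes tested. The samples were shoots of the Arabidopsis thaliana accession Col-0, grown in a ceramic granular soil, whose pots stood for 3 d in 10 mM ethanol or in water before watering was stopped. Shoots were taken on the day watering stopped (0 DAD, days after drought) and again at 1, 3, 5 and 7 DAD, which gives an ethanol group and a water group at each harvest, 10 groups of 3 libraries and 30 libraries in all. The groups share genotype and tissue and differ in pretreatment and day.

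Chlorophyll is built in the plastid from glutamate. The early steps, which begin with the glutamyl-tRNA reductase encoded by HEMA1, lead to protoporphyrin IX, the point at which the heme and chlorophyll branches part. Mg-chelatase, whose subunits come from CHLH, CHLI1 and CHLD and which GUN4 stimulates, puts magnesium into the ring. CHLM adds a methyl group, and CRD1 (also called CHL27) is a subunit of the cyclase that closes the fifth ring. Protochlorophyllide oxidoreductase (POR) then makes chlorophyllide in a reaction driven by light. In Arabidopsis PORA is best known from dark-grown seedlings, PORB is present in both dark-grown and green tissue, and PORC is the form of green tissue.

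The stretches upstream of CRD1, PORA and PORB are shown because PORA and PORB had the widest range of levels across the groups and CRD1 was the most abundant member per length at most days. They were read from the RefSeq assembly TAIR10.1 by its own annotation. The count table holds gene identifiers and no positions, and the authors aligned to TAIR10. Each run ends at the base before the annotated start of the gene, and bases that lie in a neighbouring gene were left off. Capitals mark matches on either strand to the motifs spelled out in the next paragraph. The CRD1 run is chr3:21076316-21076504 (plus strand, 189 bases), the PORA run is chr5:21992815-21993064 (minus strand, 250 bases) and the PORB run is chr4:13725360-13725545 (plus strand, 186 bases).
CRD1: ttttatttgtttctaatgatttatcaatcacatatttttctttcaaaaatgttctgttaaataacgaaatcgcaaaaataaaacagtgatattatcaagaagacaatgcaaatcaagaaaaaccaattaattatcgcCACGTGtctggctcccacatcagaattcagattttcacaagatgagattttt
PORA: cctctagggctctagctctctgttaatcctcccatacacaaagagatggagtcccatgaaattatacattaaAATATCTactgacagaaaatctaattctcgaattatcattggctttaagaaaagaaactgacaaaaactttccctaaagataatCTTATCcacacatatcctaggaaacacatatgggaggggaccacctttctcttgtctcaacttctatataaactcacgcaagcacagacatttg
PORB: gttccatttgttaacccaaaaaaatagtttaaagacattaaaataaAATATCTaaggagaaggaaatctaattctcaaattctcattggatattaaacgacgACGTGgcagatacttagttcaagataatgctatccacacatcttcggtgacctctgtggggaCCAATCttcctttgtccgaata

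Over the full 250 bases before each of the 10 gene starts, neighbouring genes included and both strands read, the G-box CACGTG was found in 1 member, CRD1, and in 6.49% of the 27438 protein-coding promoters of the same length. The shorter ACGTG, which lies inside every CACGTG, was found in CRD1 and PORB and in 22.9% of all promoters. CCAATC was found in GUN4 and PORB, against 10.2% of all promoters, and GATAAG in PORA, against 12.3%. AATATCT, the core of the evening element known from clock-controlled genes, was found in GUN4, PORA and PORB, against 10.0% of all promoters. In HEMA1, CHLH, CHLI1, CHLD, CHLM and PORC none of these letters was found in the window. The matches are a description of sequence, and binding was not measured.

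Depth was 3625884 to 14735127 gene counts per library. The smallest library was ethanol 0 DAD replicate 1, which was also the lowest of its group for all 10 genes. Water 0 DAD replicate 1 was likewise the lowest of its group for all 10 genes. The labels number the replicates and do not say what each was taken from, so p-values measure the spread between these libraries. The summed level of 4 leaf markers (RBCS1A, RBCS2B, CA1 and PSAD1) ran from 2443 to 43820 CPM (counts scaled to a common library size), and that of 4 root hair markers from 0 to 0.855 CPM. At 7 DAD the leaf markers summed to 16130 to 20650 CPM in ethanol and 2443 to 3997 CPM in water, so they moved in the same direction as the genes below. In bulk shoots, fewer green cells and less RNA of these genes per cell cannot be told apart. There were no watered plants at the later days, and drought, age and harvest time cannot be told apart between days.

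Levels are given as CPM of the library total scaled by the TMM method, and fold changes, standard errors (SE) and p-values come from edgeR's quasi-likelihood test on all 30 libraries. A gene was called where its p, adjusted over all tested genes by the Benjamini-Hochberg method, was under 0.1, the limit of the study. Members differed widely in level. Per kilobase of annotated gene, introns included, in ethanol at 0 DAD CRD1 stood at 745 ± 103 CPM (SD, n = 3) and PORB at 585 ± 109 CPM. The SD ranges overlapped, but CRD1 was above PORB in 3 of 3 libraries, and both genes were lowest in replicate 1. The middle of the order was CHLM at 180 ± 17.8 and CHLI1 at 175 ± 9.17 CPM per kilobase, with GUN4, CHLH and HEMA1 between 103 and 110 and PORC at 87.3 ± 16.2. PORA at 30.3 ± 9.50 and CHLD at 26.8 ± 4.08 CPM per kilobase were the lowest and overlapped. This order depends on the division by gene length. As mean CPM without it, CHLH had 549, above CHLM at 339 and CHLI1 at 315, and CHLD had 125 against 59.2 for PORA. Whether counts grow with gene length in these libraries was not tested. In water at 0 DAD the same pair, CRD1 at 887 ± 161 and PORB at 619 ± 117 CPM per kilobase, led the order, CRD1 again above PORB in 3 of 3 libraries, and CHLD at 28.8 ± 2.52 closed it. At 3 DAD PORB was first and CRD1 second in both pretreatments, with PORB above CRD1 in 3 of 3 ethanol libraries and in 2 of 3 water libraries. In ethanol PORB had 795 ± 86.8 and CRD1 701 ± 53.5 CPM per kilobase. In water PORB had 809 ± 45.7 and CRD1 793 ± 81.6 CPM per kilobase, and the SD ranges overlapped. As mean CPM without the division, PORB had 1507 and CRD1 1360 in ethanol at 3 DAD. In water PORB had 1533 and CRD1 1538, so there the order depends on the division.

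**Figure D1:**
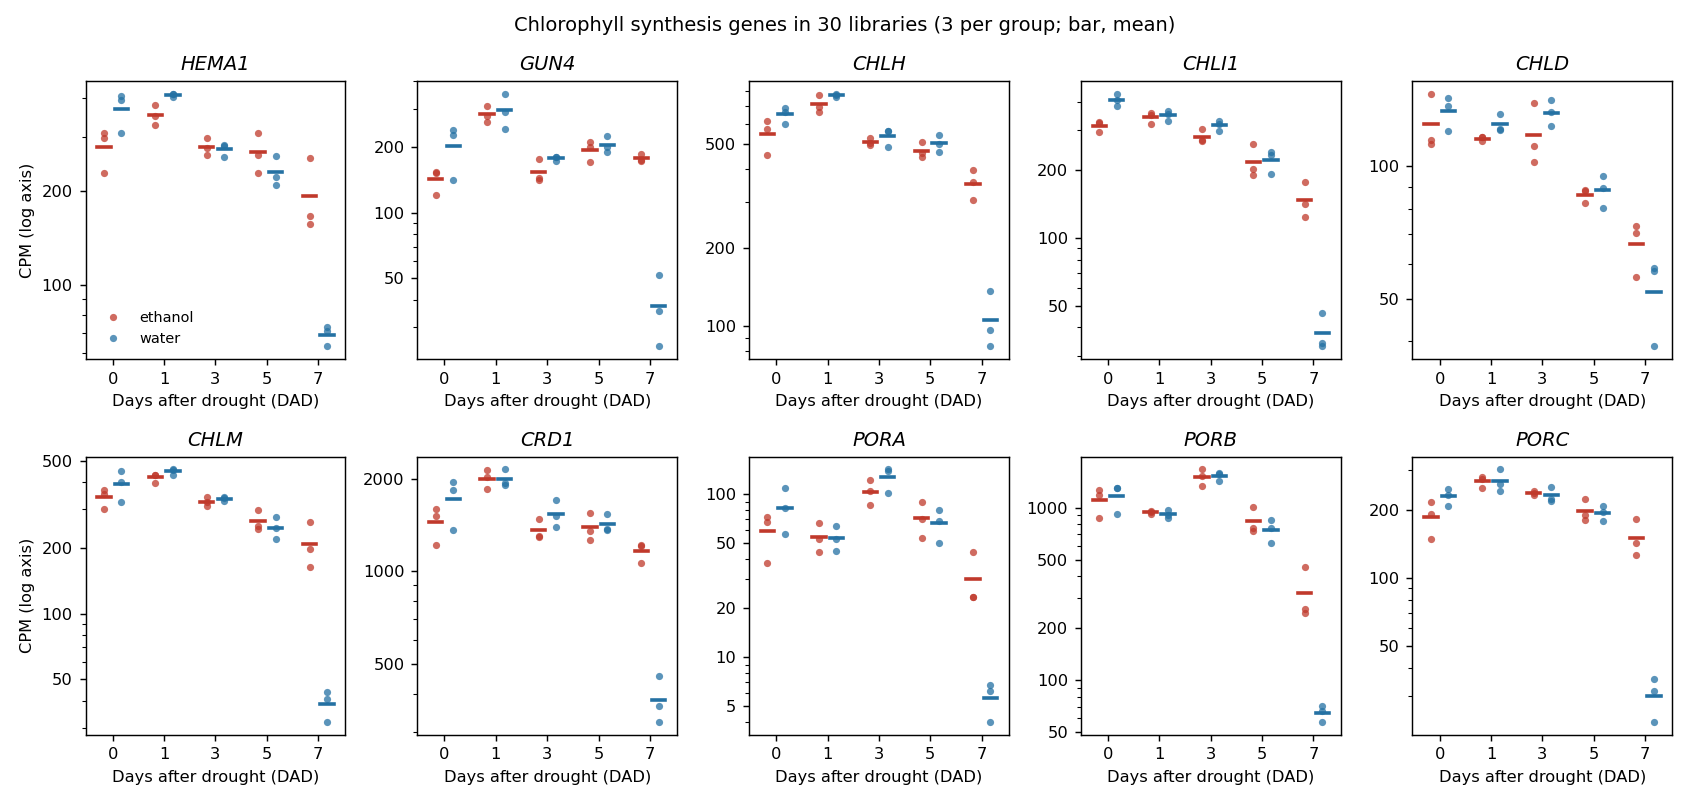
Level of each of the 10 genes in CPM (log axis, a separate scale for each gene) against days after drought, with 1 point per library and a bar at the mean of 3; ethanol is red and stands left of water, which is blue. At 7 DAD the ethanol libraries lie above the water libraries for 9 genes, and CHLD overlaps.

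The comparison of ethanol with water at 7 DAD asks how the levels of these genes differed between the pretreatments late in drought. At that harvest the drought markers RD29A (log2 fold change -2.87), RD29B (-4.29), RAB18 (-5.26) and NCED3 (-2.71) were lower in ethanol. An effect of the pretreatment on the members and a different degree of drought cannot be told apart in it. All 10 genes were higher in ethanol, against 60.5% of all tested genes called in either direction and 32% called higher. The median log2 fold change of the 10 was 2.1, from 0.36 for CHLD to 2.44 for PORA, and that of all tested genes was 0.05. For 9 of the 10 every ethanol library exceeded every water library, which was the case for 30.5% of all tested genes. Their share of all gene counts was 0.287% to 0.366% in the ethanol libraries and 0.0673% to 0.0979% in the water libraries. On library totals in place of TMM, the median of all tested genes moved to 0.26, so the fold changes below include a shift of the scale that depends on the method.

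HEMA1 (AT1G58290, chromosome 1, 21623700 to 21626402, minus strand, TAIR10.1), whose product makes the first committed precursor, had 157, 167 and 256 CPM in the ethanol libraries at 7 DAD. It had 70.8, 63.2 and 73.0 CPM in the water libraries. The lowest ethanol library was thus above the highest water library. The log2 fold change was 1.49 (SE 0.15, adjusted p = 2.80e-09, edgeR).

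GUN4 (AT3G59400, chromosome 3, 21948501 to 21949796, minus strand), a porphyrin-binding activator of Mg-chelatase, had 185, 174 and 173 CPM in ethanol and 52.1, 24.4 and 35.6 CPM in water. The ethanol libraries were close to each other and the water libraries spread over a wider relative range, with no overlap. The log2 fold change was 2.24 (SE 0.20, adjusted p = 1.31e-10, edgeR). CHLH (AT5G13630, chromosome 5, 4387307 to 4392429, minus strand), the large subunit that holds the porphyrin, had 305, 357 and 397 CPM in ethanol and 136, 83.4 and 96.6 CPM in water. Its groups did not overlap, and the log2 fold change was 1.74 (SE 0.14, adjusted p = 1.76e-11). CHLI1 (AT4G18480, chromosome 4, 10201672 to 10203469, minus strand), the ATPase subunit, had 142, 124 and 176 CPM in ethanol and 46.2, 34.0 and 33.0 CPM in water. It also showed no overlap, and the estimate was 1.97 (SE 0.14, adjusted p = 2.04e-12).

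CHLD (AT1G08520, chromosome 1, 2696381 to 2701022, plus strand), the third Mg-chelatase subunit, had the smallest estimate of the 10. Its levels were 56.0, 70.7 and 73.1 CPM in the ethanol libraries and 57.7, 38.9 and 58.7 CPM in the water libraries. Ethanol replicate 1 lay below water replicates 1 and 3, and water replicate 2 was the low value of its group. The log2 fold change was 0.36 (SE 0.14, 95% interval 0.07 to 0.65, adjusted p = 0.0335, edgeR). The call was lost without water 7 DAD replicate 2 (log2 fold change 0.21, adjusted p = 0.221), without ethanol 7 DAD replicate 3 (0.31, adjusted p = 0.113) and in a fit of the compared groups alone (0.38, adjusted p = 0.130). The 95% interval of CHLD did not reach those of CHLH (1.46 to 2.03) or CHLI1 (1.68 to 2.26), and the difference between the subunits was not tested as such. The annotation has 1 gene on the same strand that shares 42 bases with CHLD, and reads there could be counted for both.

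CHLM (AT4G25080, chromosome 4, 12876822 to 12878703, plus strand), the methyltransferase, had 196, 164 and 261 CPM in ethanol and 43.7, 31.9 and 40.7 CPM in water. The groups were far apart, and the log2 fold change of 2.41 (SE 0.15, adjusted p = 1.27e-13, edgeR) was second only to that of PORA among the 10. CRD1 (AT3G56940, chromosome 3, 21076505 to 21078443, plus strand) had 1063, 1217 and 1208 CPM in ethanol and 456, 324 and 364 CPM in water. With no overlap, its log2 fold change was 1.61 (SE 0.14, adjusted p = 6.98e-11).

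PORA (AT5G54190, chromosome 5, 21990864 to 21992814, minus strand) had 23.3, 23.5 and 44.1 CPM in the ethanol libraries and 6.72, 6.22 and 3.99 CPM in the water libraries, which rest on 35 to 56 counts each. The groups did not overlap, and ethanol replicate 3 was apart from its group. The log2 fold change was 2.44 (SE 0.31, 95% interval 1.79 to 3.08, adjusted p = 1.44e-07, edgeR). PORB (AT4G27440, chromosome 4, 13725546 to 13727440, plus strand) had 245, 259 and 451 CPM in ethanol and 70.4, 66.5 and 57.0 CPM in water, again without overlap and with ethanol replicate 3 the highest. Its log2 fold change was 2.3 (SE 0.19, adjusted p = 4.04e-11). PORC (AT1G03630, chromosome 1, 907523 to 909650, plus strand) had 143, 127 and 182 CPM in ethanol and 35.8, 23.0 and 31.6 CPM in water. Its log2 fold change was 2.32 (SE 0.16, adjusted p = 6.00e-13), so the 3 POR genes were 4.93-fold to 5.41-fold higher in ethanol and their intervals overlapped.

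Ethanol 7 DAD replicate 3 was the highest of its group for 8 of the 10 genes. Ethanol 7 DAD replicate 2 stood apart in the drought markers, with RD29B at 335 CPM, against 15.3 and 14.9 CPM in the other ethanol libraries and 2231 to 2598 CPM in water. Without either library the 9 genes other than CHLD were still called, and over every leave-one-out and alternative fit their log2 fold changes ran from 1.25 to 2.65.

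**Figure D2:**
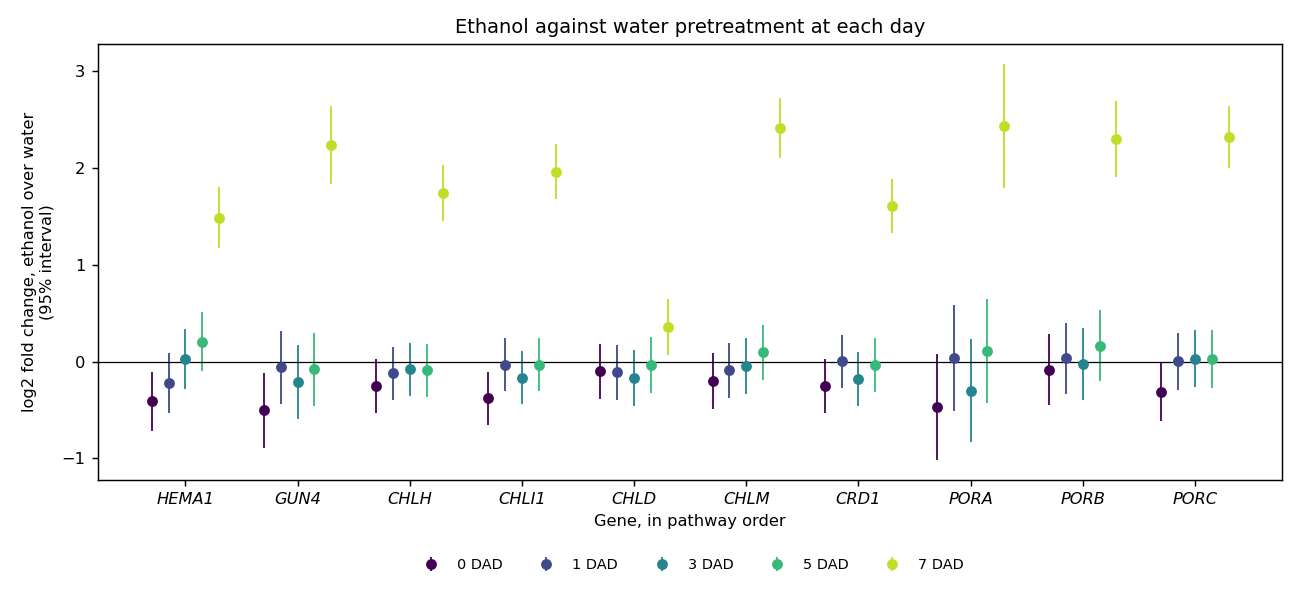
Log2 fold change of ethanol over water (vertical axis, with 95% intervals) for each gene in pathway order on each of the 5 harvest days. The 7 DAD points lie between 1.49 and 2.44 for 9 genes and at 0.36 for CHLD, and the points of the other days lie between -0.50 and 0.21.

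Before 7 DAD no member was called between the pretreatments. At 0 DAD, directly after the 3 d of ethanol or water, edgeR called 0 of 10 genes, against 1.71% of all tested genes, and 4 had an unadjusted p under 0.05 (HEMA1, GUN4, CHLI1 and PORC). All 10 estimates were below 0, with a median of -0.28, against -0.02 for all tested genes. GUN4 had 121, 154 and 152 CPM in ethanol and 141, 227 and 239 CPM in water, and the estimate was -0.50 (SE 0.19, adjusted p = 0.236). CHLI1 had 296, 325 and 324 CPM in ethanol and 386, 437 and 407 CPM in water, and HEMA1 had 229, 297 and 308 CPM in ethanol and 308, 395 and 406 CPM in water. CHLI1 and HEMA1 were the only members whose ethanol libraries all lay under the water libraries at 0 DAD, which 8.56% of all tested genes also did, and for HEMA1 the nearest libraries were level to the printed digits. Without water 0 DAD replicate 1, GUN4 alone was called (log2 fold change -0.71), and no other library or setting gave a call. CAO, the chlorophyllide a oxygenase that makes chlorophyll b, was chosen after its values were seen: it was the 1 of 6 other genes of the branch that was called at 0 DAD, at -0.63 (SE 0.14, adjusted p = 0.0282).

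At 1 DAD edgeR called 0 of 10 genes and 0% of all tested genes, at 3 DAD 0 of 10 and 0.992%, and at 5 DAD 0 of 10 and 0%. No member had an unadjusted p under 0.05 on any of these days, and DESeq2 called 0 members at 0, 1, 3 and 5 DAD. Estimates ran from -0.22 to 0.04 at 1 DAD, from -0.30 to 0.03 at 3 DAD and from -0.09 to 0.21 at 5 DAD. At 5 DAD the 95% intervals of the 10 genes lay within -0.46 to 0.65, so a difference of the size seen in the 9 genes at 7 DAD was outside all of them. Averaged over 0, 1, 3 and 5 DAD, edgeR and DESeq2 called 0 of 10 genes, against 0.499% of all tested genes by edgeR. GUN4 (log2 fold change -0.21) and CHLI1 (-0.15) had an unadjusted p under 0.05 in that average.

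The time course within each pretreatment was followed against its own 0 DAD libraries, which are shared by all comparisons of that pretreatment. In water 1 member was called at 1 DAD, against 12.9% of all tested genes, and 2 at 3 DAD, against 19.6%. Of the members 6 were lower in water at 5 DAD and all 10 at 7 DAD, against 16.8% and 35.5% of all tested genes called lower. In ethanol 4 were higher at 1 DAD and 3 at 3 DAD, against 9.35% and 13% called higher. At 5 DAD in ethanol 5 were called, against 33.3%, with GUN4 higher and the others lower. At 7 DAD 8 were lower in ethanol, against 19.5% called lower.

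In ethanol at 1 DAD 4 genes rose over 0 DAD (GUN4, CHLH, CRD1 and PORC), against 18.3% of all tested genes called and 9.35% called higher. GUN4 showed the largest change of the 10, with 277, 261 and 308 CPM at 1 DAD against 121, 154 and 152 CPM at 0 DAD, and the log2 estimate was 0.98 (SE 0.19, adjusted p = 5.13e-04). The groups did not overlap, and GUN4 was the 1 member still called without ethanol 0 DAD replicate 1, the low library. The CHLH call was also lost without ethanol 1 DAD replicate 1 or 3. In water at 1 DAD GUN4 was the 1 member called, against 12.9% of all tested genes, with 242, 351 and 289 CPM against 141, 227 and 239 CPM at 0 DAD (log2 fold change 0.54, SE 0.19, adjusted p = 0.0683). The water call was lost without water 0 DAD replicate 1, the low library (log2 fold change 0.33, adjusted p = 0.386), without water 1 DAD replicate 2 or 3 and in the fit of the compared groups alone.

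In ethanol at 3 DAD PORA, PORB and PORC were the 3 genes that rose over 0 DAD, against 24.6% of all tested genes called and 13% called higher. PORA had 104, 121 and 85.9 CPM at 3 DAD against 38.0, 67.3 and 72.3 CPM at 0 DAD in ethanol (log2 fold change 0.80, SE 0.27, adjusted p = 0.0346), and the groups did not overlap. The PORB (0.44) and PORC (0.35) calls lay near the limit, with adjusted p of 0.0881 and 0.0922. Without ethanol 0 DAD replicate 1 none of the 3 was called, and without ethanol 0 DAD replicate 3 or any 1 of the 3 DAD ethanol libraries 1 was. The PORC call was also lost with no filter and in the fit of the compared groups alone, and with DESeq2 size factors those of PORB and PORC were lost. In water at 3 DAD HEMA1 (-0.43) and CHLI1 (-0.38) fell, against 19.6% of all tested genes called, and both calls were lost without water 0 DAD replicate 2 or water 3 DAD replicate 2. The HEMA1 call was also lost without water 0 DAD replicate 3, and the CHLI1 call without water 3 DAD replicate 1. PORA in water had 102, 142 and 139 CPM at 3 DAD and 56.6, 82.2 and 109 CPM at 0 DAD, with overlap and without a call (log2 fold change 0.63, adjusted p = 0.110). It was called higher with the replicate block (adjusted p = 0.0912), by DESeq2 (0.0936), on library totals (0.0859), with no filter (0.0739), in the fit of the compared groups alone (0.0517) and without water 0 DAD replicate 3 or water 3 DAD replicate 1. PORB in water had 1593, 1434 and 1572 CPM at 3 DAD and 917, 1296 and 1305 CPM at 0 DAD. The groups did not overlap, as for 15.3% of all tested genes in that direction, and PORB was not called in the main fit. In the edgeR fit of the compared groups alone PORB was called higher (log2 fold change 0.40, adjusted p = 0.0696).

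At 5 DAD 5 genes were called in ethanol against 0 DAD, against 33.3% of all tested genes: GUN4 rose (0.45) and CHLI1 (-0.54), CHLD (-0.53), CHLM (-0.36) and PORB (-0.42) fell. The count ran from 2 to 4 with 1 library left out, the lowest being without ethanol 5 DAD replicate 2. It was 3 without ethanol 5 DAD replicate 1 or either of ethanol 0 DAD replicates 2 and 3. On library totals the calls of CHLM (-0.21) and PORB (-0.27) were lost, and that of GUN4 was lost without ethanol 0 DAD replicate 1 or ethanol 5 DAD replicate 2 or 3. In water at 5 DAD 6 genes fell, against 33% of all tested genes called and 16.8% called lower. CHLI1 changed most, with 233, 193 and 241 CPM at 5 DAD and 386, 437 and 407 CPM at 0 DAD, without overlap (log2 fold change -0.88, SE 0.13, adjusted p = 8.20e-06). HEMA1, CHLH, CHLD, CHLM and PORB were the others, between -0.37 and -0.68. The CHLH call was lost on library totals (-0.22, adjusted p = 0.220), without water 0 DAD replicate 2 (adjusted p = 0.124) and without water 5 DAD replicate 2 (adjusted p = 0.150), and CRD1 was called lower without water 0 DAD replicate 1 (-0.41, adjusted p = 0.0274).

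**Figure D3:**
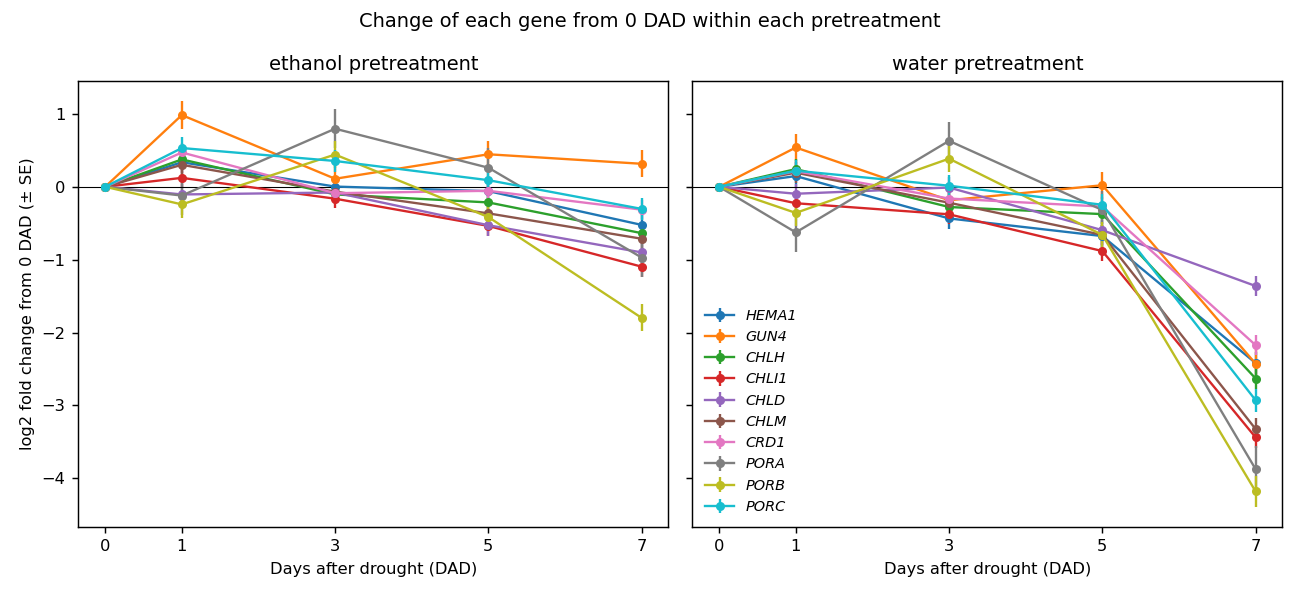
Log2 fold change from 0 DAD (vertical axis, with bars of 1 SE) against days after drought for each of the 10 genes, with ethanol on the left and water on the right. At 7 DAD the ethanol lines end between -1.80 and 0.32 and the water lines between -4.18 and -1.36.

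At 7 DAD all 10 genes were lower than at 0 DAD in water, against 70% of all tested genes called and 35.5% called lower. The median log2 fold change was -2.78, against -0.01 for all tested genes. PORB was lowest, with 70.4, 66.5 and 57.0 CPM at 7 DAD and 917, 1296 and 1305 CPM at 0 DAD, which is 18.2-fold lower (log2 fold change -4.18, SE 0.21, adjusted p = 3.24e-16, edgeR). PORA followed at -3.88 (SE 0.32), CHLI1 at -3.44 (SE 0.15) and CHLM at -3.33 (SE 0.16). CHLD changed least, at -1.36 (SE 0.14, adjusted p = 1.94e-09), with 57.7, 38.9 and 58.7 CPM at 7 DAD and 120, 137 and 143 CPM at 0 DAD. No member overlapped between these groups, and 33.5% of all tested genes also lay wholly lower at 7 DAD. No left-out library took away a call.

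In ethanol at 7 DAD 8 of the 10 genes were lower than at 0 DAD, against 41.5% of all tested genes called and 19.5% called lower, and the median log2 fold change was -0.68. PORB was again the lowest, with 245, 259 and 451 CPM at 7 DAD and 875, 1266 and 1186 CPM at 0 DAD (log2 fold change -1.80, SE 0.19, adjusted p = 1.05e-08). GUN4 was not called: it had 185, 174 and 173 CPM at 7 DAD and 121, 154 and 152 CPM at 0 DAD, without overlap, and its estimate was 0.32 (SE 0.19, adjusted p = 0.205). On library totals it was called higher (0.54, adjusted p = 0.0185). PORC was not called either (-0.30, SE 0.15, adjusted p = 0.112), but it was called lower without ethanol 0 DAD replicate 1 (-0.45) or ethanol 7 DAD replicate 3 (-0.47). The CRD1 call (-0.31, adjusted p = 0.0710) was lost on library totals (-0.095, adjusted p = 0.571), in the fit of the compared groups alone (adjusted p = 0.132) and without ethanol 0 DAD replicate 2 or 3 or ethanol 7 DAD replicate 1.

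Between 5 and 7 DAD in water all 10 genes fell, against 64.5% of all tested genes called, with a median of -2.50 and a range of -3.56 for PORA to -0.77 for CHLD. In ethanol over the same interval 5 fell, against 8.5% of all tested genes called and 3.16% called lower: PORB (-1.38), PORA (-1.23), CHLI1 (-0.56), HEMA1 (-0.46) and CHLH (-0.42). Without ethanol 7 DAD replicate 3, the high library, 8 were called. Without ethanol 5 DAD replicate 3 and in the fit of the compared groups alone 2 were called, and without ethanol 5 DAD replicate 2 or ethanol 7 DAD replicate 1 or 2, or on library totals, 3 were. PORA and PORB were thus the members that moved most in both pretreatments over these days.

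Ethanol at 7 DAD was also set against water at 5 DAD, a comparison that shares its ethanol libraries with the one at 7 DAD. In it 4 genes were lower in ethanol, against 7.01% of all tested genes called and 2.59% called lower: PORB (-1.22, SE 0.18), PORA (-1.12, SE 0.27), CHLI1 (-0.59, SE 0.13) and CHLH (-0.51, SE 0.14). PORB had 245, 259 and 451 CPM in ethanol at 7 DAD and 846, 621 and 759 CPM in water at 5 DAD, without overlap. All 10 estimates were below 0, with a median of -0.39, and 8 genes were called without ethanol 7 DAD replicate 3. The CHLH call was lost without water 5 DAD replicate 1 (adjusted p = 0.132) or ethanol 7 DAD replicate 1 (adjusted p = 0.145), and the CHLI1 call in the fit of the compared groups alone (adjusted p = 0.110). CHLD was called lower with the replicate block, by DESeq2 and without water 5 DAD replicate 2. This comparison joins different days, so pretreatment and day cannot be told apart in it.

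The difference between the pretreatments in the change from 0 to 7 DAD was tested as such. It was positive and called for all 10 genes, against 50.8% of all tested genes called and 27.6% called positive, with a median of 2.36 against 0.08 for all tested genes. PORA had the largest difference (2.90, SE 0.41), then GUN4 (2.74, SE 0.27), PORC (2.63, SE 0.21) and CHLM (2.61, SE 0.20). CHLD had the smallest, 0.46 (SE 0.20, adjusted p = 0.0624, edgeR), and its call was lost in 6 of 12 fits without 1 library and in the fit of the compared groups alone (adjusted p = 0.181). Among the left-out libraries that ended it were water 7 DAD replicate 2 and ethanol 7 DAD replicate 3.

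The balance among the POR genes was followed as ratios of counts within each library. Counts of PORC were 48.7% of those of PORB in ethanol at 7 DAD and 46.0% in water at 7 DAD, as geometric means of 3 libraries. At 0 DAD they were 16.8% in ethanol and 19.8% in water, and at 3 DAD they were 15.8% in ethanol and 15.2% in water. On the days between they were higher, with 28.6% in ethanol and 29.3% in water at 1 DAD. At 5 DAD they were 24% in ethanol and 26.3% in water. In log2 units the ratio at 7 DAD was -1.04 ± 0.26 in ethanol and -1.12 ± 0.36 in water (SD, n = 3 each), and the difference of 0.08 was well inside that spread (exact two-sided permutation test, p = 0.7). For PORA over PORB it was -3.40 ± 0.06 in ethanol and -3.53 ± 0.25 in water, a difference of 0.13 (exact permutation test, p = 0.6). With 3 libraries against 3 the smallest p that this test can give is 0.1. At 0 DAD both ratios were lower in every ethanol library than in every water library, which is that smallest p of 0.1 in each of them (exact permutation test).

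**Figure D4:**
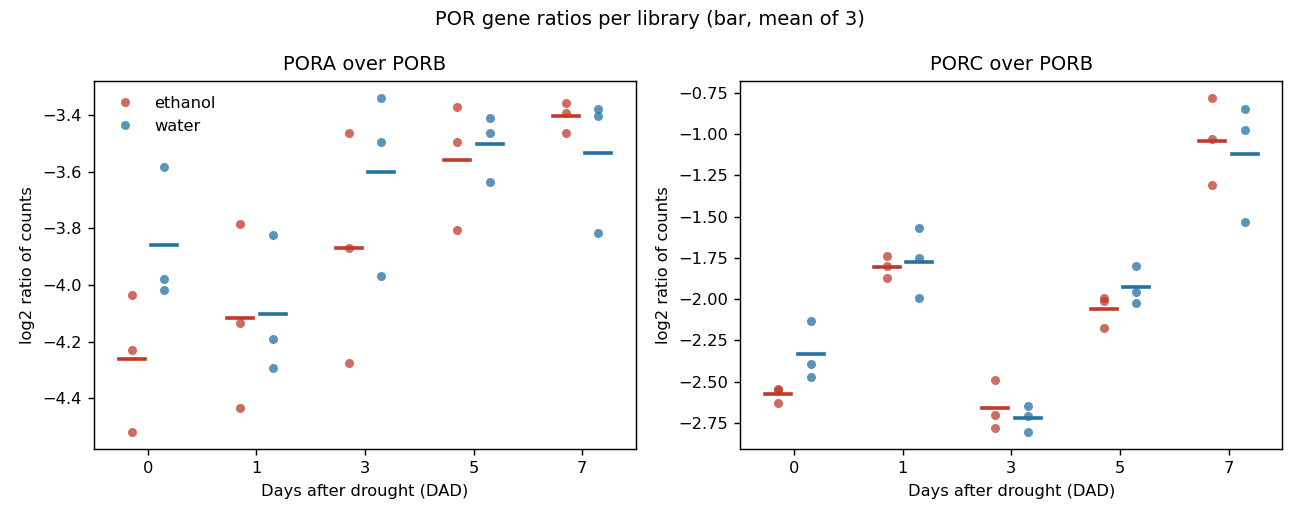
Log2 ratio of PORA to PORB counts (left panel) and of PORC to PORB counts (right panel) in each library against days after drought, with a bar at the mean of 3; ethanol is red and stands left of water, which is blue. At 7 DAD the PORC ratios lie between -1.31 and -0.78 in ethanol and between -1.53 and -0.85 in water, and each group is above its own 0 DAD libraries.

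The rest of the pathway was described by lists of named genes at 7 DAD, ethanol against water. Of 6 other genes of the chlorophyll branch all were higher in ethanol, with a median of 1.65, from CAO (0.86) to the divinyl reductase gene DVR (1.98). Of 12 tested genes for the common steps to protoporphyrin 9 were higher and 1 was lower, with a median of 0.67. GSA2, a glutamate-1-semialdehyde aminotransferase gene, was highest (2.04), and HEMA2, the second glutamyl-tRNA reductase gene, was the one that was lower (-1.35, SE 0.28, adjusted p = 1.32e-04), opposite to HEMA1. Of 6 tested genes of the heme and bilin branch 1 was higher, HO2 (1.73), and the median was -0.01. Of 5 genes for proteins that bind or regulate pathway enzymes 4 were higher, from GBP (0.54) to LIL3.1 (1.70).

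The light-harvesting proteins, which bind the finished pigment, were higher in ethanol for all 18 genes, with a median of 2.42, from LHCA2 (1.74) to LHCB2.3 (3.47). Of 7 genes of chlorophyll breakdown 5 were lower and 1 was higher, with a median of -1.23. SGR2 was lowest (-3.29), and RCCR, the red chlorophyll catabolite reductase gene, was the one that was higher (1.17). Of 12 transcription factors that act on the pathway 5 were higher and 4 were lower. GLK1, an activator of photosynthesis genes, was highest (2.06, SE 0.18), and the phytochrome-interacting factor gene PIF3 was lowest (-1.37, SE 0.29). The other PIF genes of the list went the other way. Mean CPM in ethanol and in water was 13.8 and 3.76 for PIF1, 101 and 28.0 for PIF4, and 112 and 31.2 for PIF5. For HY5 it was 11.65 and 17.6, and for HYH 6.045 and 12.7. The lists share these libraries with the 10 genes and are given as counts beside the 32% higher and 28.6% lower of all tested genes.

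Clock genes moved as well. Of 9 clock genes 6 were lower in ethanol than in water at 7 DAD, from PRR5 (-1.80) to TOC1 (-0.96), against 28.6% of all tested genes. CCA1 ranged from 59.7 to 79.3 CPM in ethanol and from 137 to 164 CPM in water at 7 DAD. At 0 DAD 2 clock genes were higher and 1 was lower in ethanol, against 0.764% of all tested genes called higher and 0.951% called lower. Some clock genes also differed between days within a pretreatment. From 0 to 3 DAD mean ELF4 went from 6.42 to 69.9 CPM in ethanol and from 4.79 to 59.3 CPM in water. PRR7 moved less, from 88.6 to 105 CPM in ethanol and from 86.6 to 99.0 CPM in water. Several of the 10 genes are known to be expressed with a daily rhythm, and the part of harvest hour in these results was not tested.

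**Figure D5:**
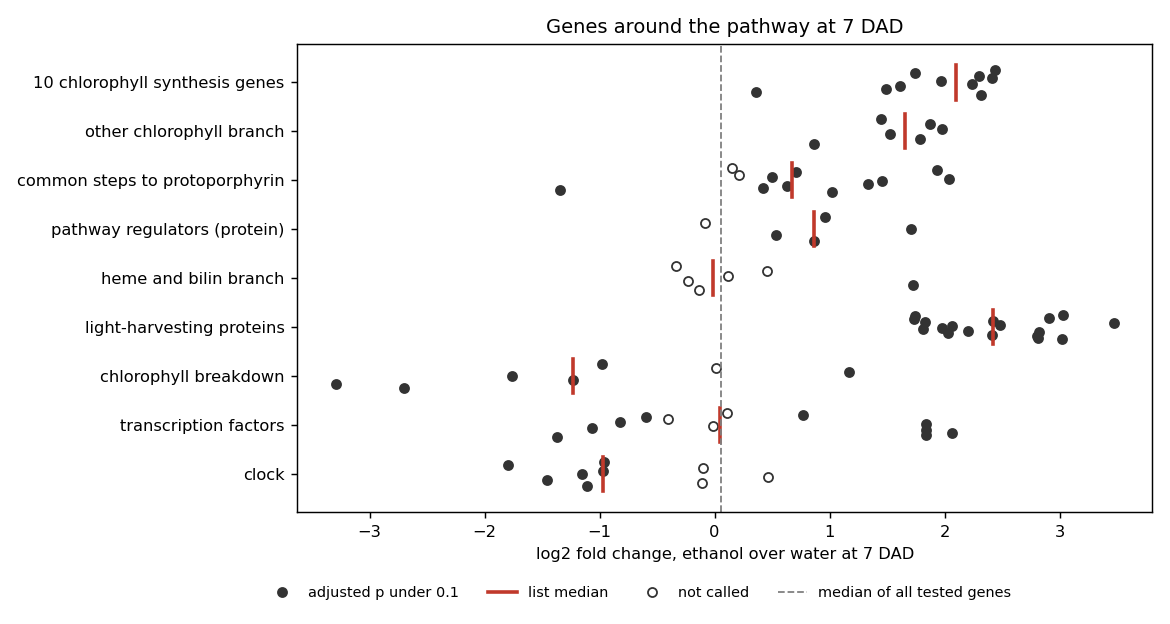
Log2 fold change of ethanol over water at 7 DAD for each tested gene of 9 lists, filled where the adjusted p was under 0.1, with the list median as a red line and the median of all tested genes (0.05) dashed. The 10 chlorophyll synthesis genes centre at 2.1 and the 18 light-harvesting genes at 2.42, and chlorophyll breakdown centres at -1.23.

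Across the 30 libraries the 10 genes varied together, with Pearson r of log2 CPM from 0.67 for GUN4 and CHLD to 0.99 for CHLH and CRD1. The libraries share their groups and the large 7 DAD change, so these values are a description. The genes whose log2 CPM was most like the mean standardised level of the 10 were PSBQA, a subunit of photosystem II (r = 0.996), AT2G42220 (0.996), CHLP (AT1G74470), the geranylgeranyl reductase gene of the same pathway (0.994), and the light-harvesting genes LHCB4.1 (0.993) and CAB3 (0.992). For PORC the nearest were PnsB3 (0.993), Lhca6 (0.991) and AT4G39970 (0.991). For PORB they were AT1G79790 (0.983), HB2 (0.979) and PLA2-ALPHA (0.979), and for PORA they were OEP6 (0.967), GER3 (0.966) and FNR2 (0.964). PORA thus had less close neighbours than the other POR genes, and it was also the least counted of them.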

How the data were processed

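RNA was measured in 30 shoot libraries made with Lasy-Seq, a strand-marking method. Per the study's methods, the authors trimmed read 1 with Trimmomatic, aligned it to TAIR10 with HISAT2 and counted primary alignments per gene on the gene's strand with featureCounts, introns included, with reads in overlapping genes allowed to count for each. The deposited raw counts were used, and the deposited normalised table was not. No library of a group repeated another.

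The test was edgeR 4.0.16 (R 4.3.3): filterByExpr, TMM factors (0.915 to 1.16), 1 mean per group over all 30 libraries, quasi-likelihood tests and Benjamini-Hochberg adjustment. The authors used DESeq2; version 1.42.0 was an alternative, with other scalings, no filter, compared groups alone, a replicate block and single libraries left out. POR ratios used counts plus 0.5. Scripts were tested on simulated data. Symbols and positions came from RefSeq TAIR10.1, which matched 26720 identifiers. Named were all members, the highest and lowest called gene of each list at 7 DAD, and the genes nearest in pattern over 30 libraries. The members and lists were chosen with earlier results of these data known.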

Additional observations from a re-analysis of the deposited data

Results flagged for a closer look

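The change from 0 to 7 DAD was called different between ethanol and water for all 10 genes (interaction term of the edgeR fit). Of all tested genes 50.8% were called in it and 27.6% were called positive. The CHLD call (adjusted p = 0.0624, edgeR) was lost in the fit of the compared groups alone (adjusted p = 0.181). It was also lost in several fits without 1 library. The log2 differences, ethanol minus water, were 1.90 for HEMA1, 2.74 for GUN4, 2.0 for CHLH, 2.34 for CHLI1, 0.46 for CHLD, 2.61 for CHLM, 1.86 for CRD1, 2.90 for PORA, 2.38 for PORB and 2.63 for PORC.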

How the results depend on the processing

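Of 254 recomputed member counts and POR ratios 227 stayed within 1.5 times the value reported (for ratios, within the library spread), and of 2400 recomputed single-gene values 78 lost a call, 28 gained one and 0 reversed a called direction. Of 78 calls 57 held in every fit, among them 38 of the 40 at 7 DAD between pretreatments, in water against 0 and 5 DAD, and in the difference of changes; the other calls there were those of CHLD. The cause of the changes below was not tested. In the fit of the compared groups alone, which has fewer libraries, 0 members were called for water at 1 against 0 DAD, 4 for water at 3 against 0 DAD and 2 for ethanol at 7 against 5 DAD. On library totals 3 were called for ethanol at 5 against 0 DAD and 3 for ethanol at 7 against 5 DAD, and with DESeq2 size factors 1 for ethanol at 3 against 0 DAD. With 1 library left out, member counts ran from 0 to 1 for ethanol against water at 0 DAD and for water at 1 against 0 DAD, from 0 to 2 for water at 3 against 0 DAD, from 1 to 4 for ethanol at 1 against 0 DAD, from 0 to 3 for ethanol at 3 against 0 DAD, from 2 to 4 for ethanol at 5 against 0 DAD, from 2 to 8 for ethanol at 7 against 5 DAD and from 3 to 8 for ethanol at 7 against water at 5 DAD. The 7 DAD differences of the POR ratios ran from -0.01 to 0.21 for PORA over PORB and from -0.13 to 0.21 for PORC over PORB with 1 library left out.

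Same-numbered ethanol and water libraries of the same day showed little shared deviation over all genes (r from -0.097 to 0.212, above 0.1 in 2 of 15 same-number pairs). The numbers were therefore not taken as pairs. The highest r, 0.212, was that of ethanol and water replicate 1 at 0 DAD, each the lowest of its group for all 10 members. The block below uses the same number effect on all days, and a block within a day was not fitted. With the replicate number as a block, 15 of 18 member counts were the same, and 10 genes were called between ethanol and water at 7 DAD; the other counts were 3 for water at 3 against 0 DAD, 5 for ethanol at 1 against 0 DAD and 5 for ethanol at 7 against water at 5 DAD. Depth limits PORA most, which had 35 to 56 counts in the water libraries at 7 DAD.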
